A study of Mus musculus with 2 samples.

Results

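MiR-199a, miR-199b and miR-214 were examined in small RNA libraries of wild-type C57BL/6 mouse hearts dissected at E9.5 (embryonic day 9.5). Members were taken by name alone, as every precursor whose miRBase name is miR-199a, miR-199b or miR-214 whatever its copy number or arm. This gave 4 precursor entries of the 620 listed in either of the 2 replicates, and all 4 were listed in both. The study has 1 group of 2 samples, which share genotype, strain, age and tissue and received no treatment, so no conditions were compared. The labels do not say whether the replicates came from separate embryos or pools, so the SDs below give the spread between these libraries only. The tests below set differences against counting error only. The libraries held 4942257 and 4806179 reads on mature miRNAs and 124128 and 132103 on star sequences, the star being the arm of the hairpin opposite the one that the program miRDeep2 took as the mature miRNA. As a check of the tissue, the cardiomyocyte miRNAs miR-1a, miR-133a, miR-208a, miR-208b and miR-499 together made up 22.6% and 23.5% of the mature reads, or 15.6% and 16.3% with each mature sequence counted once in the list and in the total. Most of the first sum was miR-1a, with 19.9% and 21.0% over its 2 entries. MiR-499 held 0.17% and 0.15%, and miR-208b 0.038% and 0.033%. MiR-208a had 860 reads in replicate 1 and no entry in replicate 2. Because the hearts were sequenced whole, fewer mesenchymal cells and less miRNA per cell cannot be told apart, and these 4 entries are named here for the genes that hold them and not for a cell type.

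A miRNA is cut from a hairpin whose 2 arms, called 5p and 3p, can both be loaded into the silencing complex, where the bases of the seed (positions 2 to 8) pair with target mRNAs. The mouse genome holds each miR-199 hairpin on the strand opposite a gene for dynamin, a GTPase that pinches off membrane vesicles, and miR-214 lies beside one of them in the noncoding RNA Dnm3os. These miRNAs are known from mesenchyme, fibroblasts and the developing skeleton. In heart muscle miR-199a-5p is known to repress Hif1a, a transcription factor of the oxygen response, miR-199a-3p to promote cardiomyocyte division, and miR-214 to repress Slc8a1, the sodium-calcium exchanger.

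MiR-199a-2 and miR-214 lay on chromosome 1 of mm9, on the plus strand at chr1:164147975-164148035 and chr1:164153528-164153589. Both were in exons of Dnm3os and in introns of Dnm3, which is transcribed from the other strand. They were 5492 bases apart, and of the 3 annotated Dnm3os transcripts 1 spanned both and 1 more held miR-199a-2 only. MiR-199a-1 lay on the minus strand at chr9:21300942-21301003, in an intron of Dnm2 on the opposite strand. MiR-199b lay on the plus strand at chr2:32174005-32174065, in an intron of Dnm1, again on the opposite strand. No other listed entry overlapped any of these positions. The precursors are printed because they show which parts the 3 miR-199 loci share, with capitals for the 5p and 3p arms as miRDeep2 placed them and lower case for the bases between.

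miR-199a-1: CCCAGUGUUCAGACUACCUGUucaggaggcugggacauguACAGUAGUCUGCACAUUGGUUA

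miR-199a-2: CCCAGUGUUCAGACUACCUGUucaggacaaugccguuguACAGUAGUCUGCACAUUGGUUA

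miR-199b: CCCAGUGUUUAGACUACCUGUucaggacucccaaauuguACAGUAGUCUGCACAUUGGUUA

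miR-214: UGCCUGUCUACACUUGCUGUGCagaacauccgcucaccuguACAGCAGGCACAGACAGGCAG

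**Figure D1:**
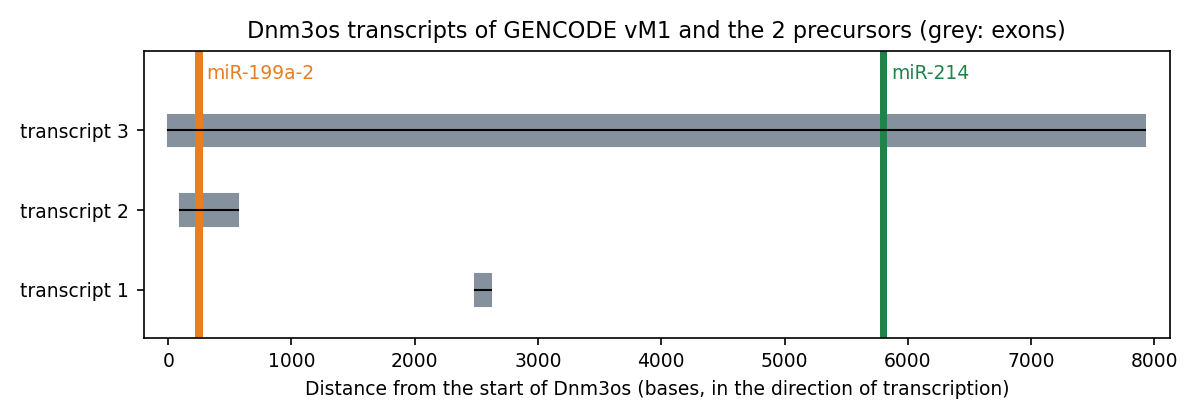
Map of Dnm3os with the distance in bases from its annotated start on the x axis, drawn to scale. Grey boxes are exons of the 3 annotated transcripts and coloured bands mark the precursors, which start 221 bases (miR-199a-2) and 5774 bases (miR-214) from the start of the 7928-base gene; only the longest transcript spans both.

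The 4 entries gave 5 distinct arm sequences with 4 seeds. They are printed below with the seed in capitals because the counts that follow depend on which entries share them.

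miR-199a-3p and miR-199b-3p: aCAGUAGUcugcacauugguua

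miR-199a-5p: cCCAGUGUucagacuaccugu

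miR-199b-5p: cCCAGUGUuuagacuaccugu

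miR-214-3p: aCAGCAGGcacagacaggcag

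miR-214-5p: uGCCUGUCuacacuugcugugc

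The 3p arm was the same 22 bases at all 3 miR-199 loci. The 5p arm was the same 21 bases at miR-199a-1 and miR-199a-2, and miR-199b-5p differed from it at a single base, C10U, counted from 1 at the 5′ end and outside the seed. Both 5p sequences thus had the seed CCAGUGU, and miR-199-3p had CAGUAGU. The 3p arms of miR-199 and miR-214 begin alike, but their seeds, CAGUAGU and CAGCAGG, differ. None of the 4 seeds occurred in a mature or star sequence of any other listed miRNA. RefSeq (GRCm38.p6) held 7 of these 8 arms as mature miRNAs, and each of the 7 began with the sequence printed here. The arm without a RefSeq entry was miR-199b-5p, whose sequence is thus given from the deposited tables alone. RefSeq gave miR-199a-5p 23 bases and miR-214-3p 22 bases, which is longer than the 21 bases that the deposited tables give for each.

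In the entries of all 3 miR-199 loci the 3p arm held most reads, although the tables name each entry after its 5p arm. MiR-199a-2 had 7204 reads on 3p and 2928 on 5p in replicate 1, and 6448 and 2647 in replicate 2. MiR-199a-1 had 7191 on 3p and 2928 on 5p in replicate 1, and 6421 and 2647 in replicate 2. MiR-199b had 7191 on 3p and 943 on 5p in replicate 1, and 6421 and 847 in replicate 2. The 3p counts were equal at miR-199a-1 and miR-199b in each replicate, and the 5p counts were equal at both miR-199a loci, as their sequences were. The miR-199a-2 entry exceeded the others on 3p by 13 reads in replicate 1 and 27 in replicate 2. This was the only difference in counts between the miR-199a-2 and miR-199a-1 entries. Whether the same reads were listed at each locus was not tested, as the tables give counts and not reads. The bases that follow the 3p arm in the genome are GA at miR-199a-2 and GG at miR-199a-1 and miR-199b, but whether the additional reads reached into them was not tested.

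MiR-214 was far less abundant, with 319 reads on 3p and 243 on 5p in replicate 1, and 305 and 263 in replicate 2. Its hairpin had 564 and 573 reads in all, against 10132 and 9095 at miR-199a-2 in the same Dnm3os RNA. The ratio of the miR-199a-2 entry to the miR-214 entry averaged 16.9 ± 1.48 over both replicates (SD, n = 2), being 18.0 in the first and 15.9 in the second. Both arm sequences of miR-199a-2 also occur at other loci, so this ratio compares entries and not the output of the neighbouring hairpins. By arm, and with each sequence counted once, the 3p sequence of miR-199 was 21.9 ± 1.02 times that of miR-214 (SD, n = 2). The 5p sequence of miR-199a was 11.1 ± 1.40 times that of miR-214 (SD, n = 2).

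**Figure D2:**
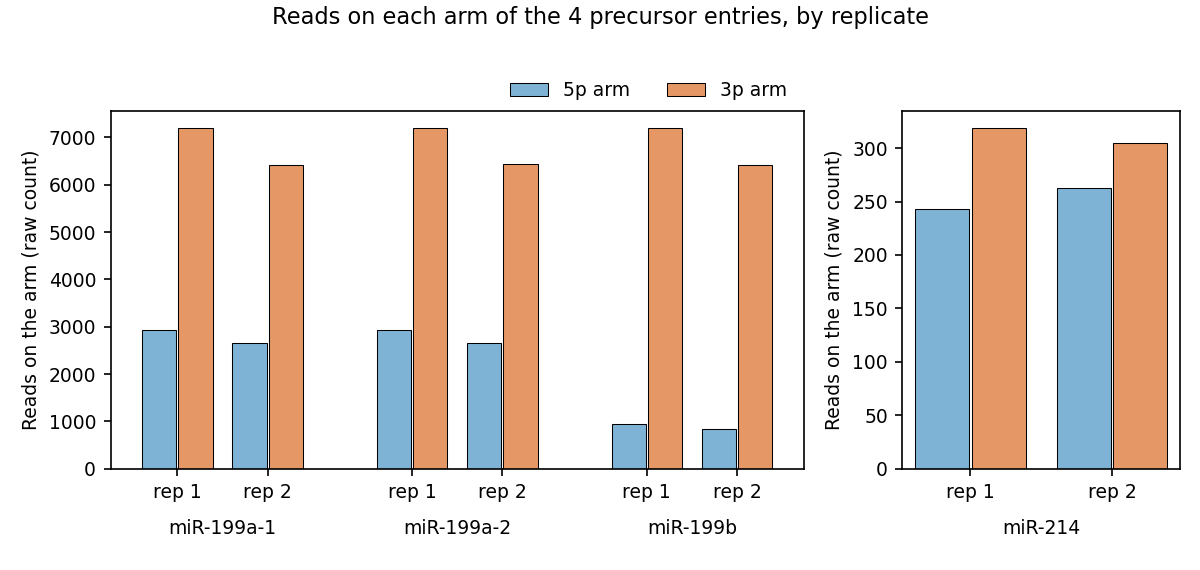
Raw reads on the 5p arm (blue) and 3p arm (orange) of each entry in each replicate (rep), with a separate y axis for miR-214. The 3p bars of the 3 miR-199 entries stand at nearly the same height in a replicate, between 6421 and 7204 reads, and these loci share the 3p sequence, whereas the 5p bar of miR-199b, at 943 and 847 reads, is lower than those of miR-199a.

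As shares of all mature reads, miR-199a-2 held 0.140% ± 0.008, miR-199a-1 and miR-199b 0.140% ± 0.008 each, and miR-214, by its 5p arm, 0.0052% ± 0.0004 (SD, n = 2 for each). Among the 471 entries listed in both replicates these were rank 76, a shared rank of 77, and rank 259. The miR-199 entries list the same 3p sequence, so their near-equal shares do not compare the 3 loci, and miR-214 was below all 3 of them in both replicates. Added up, the 4 entries held 21829 and 19553 mature reads, or 0.424% ± 0.025 of the total (SD, n = 2). That sum adds the counts listed for miR-199-3p at 3 loci. With every mature sequence counted once, in the members and in the total, it was 0.199%.

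Of the reads on both arms, the miR-199a-2 entry had 71.1% on 3p in replicate 1 (70.2% to 72.0%, the 95% Wilson interval) and 70.9% in replicate 2 (70.0% to 71.8%). At miR-199a-1 it held 71.1% and 70.8%, and at miR-199b 88.4% (87.7% to 89.1%) and 88.3% (87.6% to 89.1%). These intervals lie far above equal use of the arms, so 3p exceeded 5p at each of these entries in both replicates, and the intervals of miR-199b lie above those of both miR-199a entries. The intervals cover counting error only, as do all of those given here. The higher value of miR-199b sets a 3p sequence that all 3 loci share against a 5p sequence that is its own, and the deposited counts do not show how the 3p reads divide among the loci.

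With each arm sequence of miR-199 counted once, 3p had 7204 reads and the 2 versions of 5p 3871 together in replicate 1, and 6448 and 3494 in replicate 2. The 3p share was then 65.0% ± 0.14 (SD, n = 2), with 65.0% in replicate 1 (95% Wilson interval 64.2% to 65.9%) and 64.9% in replicate 2 (63.9% to 65.8%). Summed over the 3 entries without regard to shared sequences it was 75.9% ± 0.14. Adding the entries listed 28385 and 25431 arm reads, which is 2.56 times the 11075 and 9942 that remain when each sequence is counted once.

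The base that separates miR-199b-5p from miR-199a-5p gave the only measure of 1 miR-199 gene against the others. The 5p count listed at both miR-199a loci was taken once here, although whether both list the same reads was not tested. On that count, the 5p sequence of miR-199b made up 24.4% of the 5p reads in replicate 1 (95% Wilson interval 23.0% to 25.7%). In replicate 2 it made up 24.2% (22.8% to 25.7%), and the mean was 24.3% ± 0.08 (SD, n = 2). Added over both loci, the miR-199a count would be 5856 and 5294 in place of 2928 and 2647, and the share of miR-199b would be lower. Counted once in the same way, the 5p sequence of miR-199a-1 and miR-199a-2 was 3.12 ± 0.01 times that of miR-199b (SD, n = 2). The share of miR-199b did not differ detectably between the replicates (p = 0.913, two-sided Fisher's exact test). The 2 miR-199a genes could not be separated in this way, as their arms have the same sequence.

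MiR-214 had the most even arms of the 4 entries. Its 3p arm, which miRDeep2 listed as star in both replicates, held 56.8% of the arm reads in replicate 1 (95% Wilson interval 52.6% to 60.8%) and 53.7% in replicate 2 (49.6% to 57.8%), or 55.2% ± 2.17 (SD, n = 2). The excess of 3p over 5p was larger than counting error in replicate 1 (319 against 243 reads; adjusted p = 0.0018, exact binomial test adjusted over the 8 tests of 4 entries in 2 replicates). It was not in replicate 2 (305 against 263 reads; adjusted p = 0.085, same exact test). With the reads of both libraries pooled, 624 were on 3p and 506 on 5p (unadjusted p = 0.000495, exact binomial test). The pooled reads include those of replicate 1 and are no separate evidence. The arm that the tables call mature was thus the less read one in both libraries, by more than counting error in replicate 1 but not in replicate 2.

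**Figure D3:**
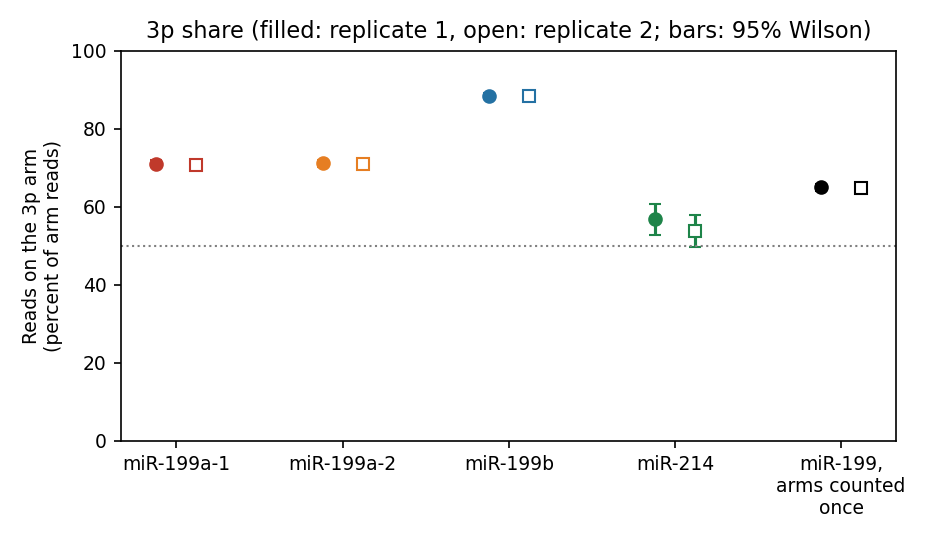
Percent of arm reads on the 3p arm, with filled circles for replicate 1, open squares for replicate 2 and bars for 95% Wilson intervals, some smaller than the symbols. The dotted line marks equal arms; miR-199b lies at 88.4% and 88.3%, both miR-199a entries near 71%, miR-214 at 56.8% and 53.7%, and the miR-199 family with each arm sequence counted once at 65.0% and 64.9%.

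Set beside other precursors, all 4 entries kept many reads on the star arm. Across the 382 entries listed in both replicates with at least 20 arm reads in each, the median star share was 1.02% (quartiles 0% and 8.73%), and 90 entries reached 10%. The star arm held 29.0% ± 0.15 of the arm reads at miR-199a-2, 29.1% ± 0.18 at miR-199a-1 and 11.6% ± 0.04 at miR-199b (SD, n = 2 for each), higher than in 91.4%, 91.6% and 77.5% of these entries. MiR-214, at 55.2%, ranked 3 from the highest. It was 1 of 3 entries whose star reads exceeded their mature reads in both replicates, and the others were miR-324 and miR-485, named here after their values were seen. Together the 4 entries, with 0.442% and 0.407% of the mature reads, held 5.73% and 4.88% of all star reads. Entries with the same arm sequence enter these counts more than once, as they do for miR-199. Of the 382 entries, 103 had no star reads in either replicate, among them second entries of miR-21a, miR-24 and miR-485. Such second entries can lower the median and raise the percentages given for the members, and how far they do was not tested.

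**Figure D4:**
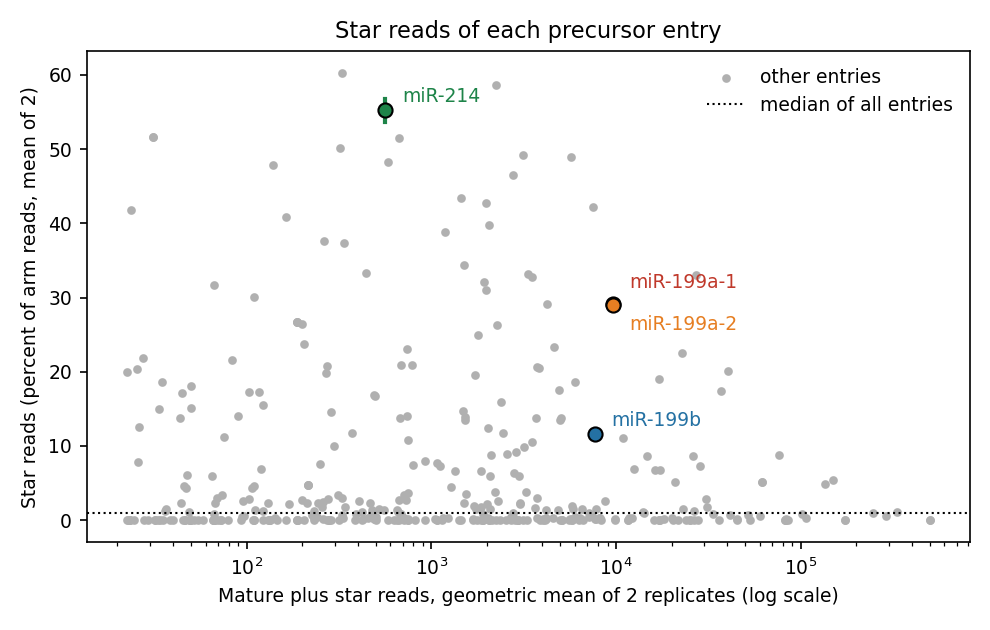
Star reads as percent of arm reads (mean of 2 replicates) against the mature plus star reads of each entry (geometric mean of 2 replicates, log scale) for 382 entries. Coloured points are the 4 members, with the range over both replicates as a line, and the dotted line is the median of all entries at 1.02%; miR-199a-1 and miR-199a-2 lie on top of each other at 29%, and miR-214 is among the highest points at 55.2%.

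Reads on the loop between the arms were absent at miR-199 and rare at miR-214. All 3 miR-199 entries had 0 loop reads in both replicates, which with 8134 reads at miR-199b in replicate 1 allows a loop share of up to 0.037%, and with 10132 at miR-199a-2 up to 0.030%. MiR-214 had 2 of 564 reads on its loop in replicate 1 and 5 of 573 in replicate 2, or 0.35% and 0.87%. A loop without reads was common, since 322 of the 382 entries had none in either replicate. In computed folding the miR-214 hairpin was the most stable of the 4 at -34.3 kcal/mol, followed by miR-199a-2 at -25.3, miR-199a-1 at -25.2 and miR-199b at -22.7 kcal/mol. The column of the tables that reports the folding test of miRDeep2 was positive for all 4 entries in replicate 1, and in replicate 2 for all but miR-199a-1, which has the same sequence in both.

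The replicates were compared next. The share of miR-199 was lower in replicate 2, with a log2 ratio of replicate 2 over replicate 1 of -0.12 for each of the 3 entries, and this was larger than counting error. The adjusted p was 5.7e-06 for miR-199a-2 and 2.9e-06 for miR-199a-1 and miR-199b (two-sided exact binomial test, adjusted over 431 entries by Benjamini-Hochberg). Of these 431 entries, 41.1% differed in this test, and 13.5% with the higher share in replicate 1, as miR-199 had. The 3 calls rest on 1 shared 3p sequence with equal or nearly equal counts, and were not taken as independent. The 5p arms, which this test did not use, had log2 ratios of -0.11 for miR-199a and -0.11 for miR-199b. MiR-214 did not differ detectably by its 5p arm, at a log2 ratio of 0.15 (243 and 263 reads; adjusted p = 0.37, same exact test), and its 3p arm had a log2 ratio of -0.02. These differences lay within the spread of the libraries as a whole, in which the median absolute log2 ratio was 0.19. The biological coefficient of variation by edgeR's common dispersion was 15.3%. Smaller absolute ratios than that of miR-199a-2 were seen in 36.7% of entries, and smaller ones than that of miR-214 in 44.3%.

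The division of reads between the arms was compared in the same way. Between replicates the 3p share moved by -0.21 percentage points at miR-199a-2, by -0.25 at miR-199a-1, by -0.06 at miR-199b and by -3.06 at miR-214. No member passed the test of a difference in arm use (adjusted p of 1 at the 3 miR-199 entries and 0.998 at miR-214, two-sided Fisher's exact test over 382 entries), and the unadjusted p, the lowest being 0.31 for miR-214, also gave 0 calls at 0.05. Of all entries 8.90% passed. At miR-214 the intervals of the replicates reach from 49.6% to 60.8%, so a shift of several percentage points was not detectable at its depth.

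**Figure D5:**
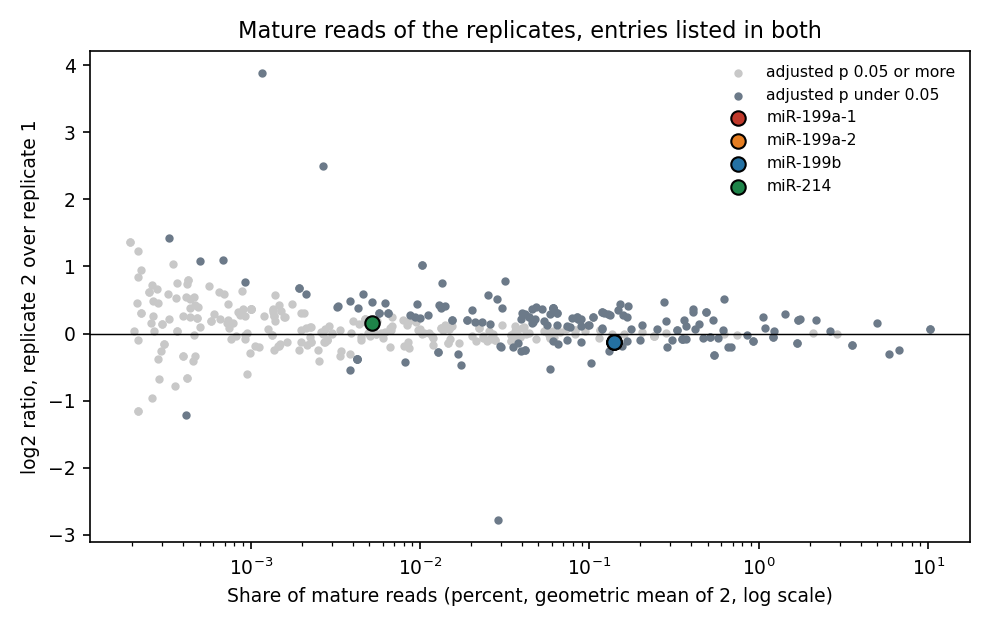
The log2 ratio of the mature read share in replicate 2 over replicate 1, against the share itself (percent, geometric mean of 2 replicates, log scale), for 431 entries. Dark grey points have an adjusted p under 0.05 and light grey points do not; the 3 miR-199 entries overlap at -0.12 and miR-214 lies at 0.15, all within the band of entries of like abundance.

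For comparison, miR-143 and miR-145a, known from smooth muscle, held 6.75% ± 0.79 and 0.625% ± 0.001 of mature reads, and their star shares were 1.11% ± 0.15 and 17.3% ± 0.92 (SD, n = 2 for each). Both miRNAs were more abundant than any of the 4 entries in both replicates. MiR-218, which also comes from copies in a pair of related host genes (Slit2 and Slit3), had 3 entries with the same mature sequence, 36815 and 35377 reads at the copy on chromosome 11 and 25965 and 24400 at each of 2 overlapping entries on chromosome 5. The counts of the copies on different chromosomes were not near-equal as those of miR-199-3p were, and only 10 and 15 star reads were listed in all. Across the tables, 77 mature sequences of replicate 1 and 74 of replicate 2 stood at more than 1 entry, and at 52 and 51 of them all entries had equal counts.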

How the data were processed

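Per the labels, total RNA of E9.5 hearts was made into libraries with the TruSeq small RNA kit and read on a HiSeq2500. The deposited values are raw counts of reads per known precursor, which the authors obtained by running miRDeep2 against mm9 on each library, with no normalization. Versions of miRDeep2 and miRBase are not given in the sources used here. The members, lists and tests were chosen with earlier results of these data known.

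Arms were named by the end of the precursor at which each sequence lies. Entries of the replicates were paired at an overlap of at least 50% of both precursors. All 620 precursors were identical to NCBIM37, the assembly of mm9, and genes are those of GENCODE vM1. Shares are percentages of the mature reads, and intervals are 95% Wilson intervals. The binomial test used entries with at least 20 mature reads in sum, and Fisher's test those with at least 20 arm reads in each replicate. Both were two-sided at an adjusted p under 0.05. They were tried on simulated counts drawn with counting error only, which leaves out the further spread between libraries. No quasi-likelihood test was made, as the study has 1 group and so no second group to compare it with. Dispersion and scaling came from edgeR 4.0.16 and DESeq2 1.42.0 under R 4.3.3, folding from RNAfold 2.7.2, and the rest from Python 3.11.15 with scipy 1.17.1, pandas 2.3.3, numpy 2.4.6 and matplotlib 3.10.9. Named besides the members are miR-143, miR-145a, miR-218, the miR-200 family, markers of cell types, miRNAs with the seed of a member, and the 3 names nearest in share to each member. Alternatives counted shared sequences once, used all precursor reads, pooled replicates, left each out, and varied scaling and minimums.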

Additional observations from a re-analysis of the deposited data

How the results depend on the processing

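The summed share of the 4 entries was 0.424%, and it moved to 0.199% with each mature sequence counted once and to 0.549% with all reads of the precursor. The 3p share of the 3 miR-199 entries summed moved from 75.9% to 65.0% with each arm sequence counted once. With each mature sequence counted once, 1 of the 2 entries left to test differed between replicates in place of 3 of 4, since the miR-199 entries then form 1 item. The other 54 of 58 recomputed values stayed within the spread or on the same side of the threshold (counts within 1.5 times). Many of these could not have come out otherwise. Leaving out a replicate or pooling both must give a value within the SD of the 2 replicates. Loop reads were 0 at miR-199, and a minimum of reads does not alter the ratio of an entry. The directions of all 4 replicate ratios held under every scaling tried. Scaling moved all ratios by -0.06 (edgeR's TMM) or -0.07 (DESeq2's size factors) on the log2 scale. Arm use was also tested over only those entries with the same mature arm in both replicates, an alternative chosen after seeing the data, and 8.75% in place of 8.90% passed. The test between replicates cannot be made without one of them. Depth limits miR-214 most, at 562 and 568 arm reads. The shares of the marker lists with each mature sequence counted once were likewise added after seeing the data. No paired analysis was possible because there is 1 group.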

Other observations

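The miR-200 family, known from epithelia, gave a second low-abundance group for the scale of miR-214. Together its 5 entries (miR-141, miR-200a, miR-200b, miR-200c and miR-429) held 1352 and 1335 mature reads, or 0.0276% ± 0.0003 (SD, n = 2). This sum is above the 0.0052% of the single arm miR-214-5p and below the 0.140% of each miR-199 entry. By entry, miR-200b (0.0113%) and miR-200c (0.0100%) were above miR-214-5p and miR-200a (0.0055%) was close to it. MiR-429 (0.0007%) and miR-141 were below it, and miR-141 was listed in replicate 1 only, with 8 reads. The reads of miR-214-3p, the more read arm, came to 0.0064% of the mature total. That is above miR-200a and still below miR-200b and miR-200c. The erythroid miRNAs miR-451a, miR-144 and miR-486a together held 0.219% and 0.273%, nearly all of it miR-486a at 2 entries. With each mature sequence counted once in the list and in the total, they held 0.154% and 0.192%. The other members of this list were low, as miR-451a had 128 and 127 mature reads, or 0.0026% in each replicate. MiR-144 had no entry in replicate 1 and 73 mature reads in replicate 2. The sum is thus in effect a value for miR-486a. The endothelial miR-126a held 2.88% ± 0.02 (SD, n = 2).

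By mean share of mature reads summed over entries of a name, miR-199a stood at rank 45 of 496 names, next to miR-296, miR-93 and miR-423. MiR-199b stood at rank 70, next to miR-133b, miR-337 and miR-191. MiR-214, by its less read 5p arm, stood between miR-668, with 219 and 294 mature reads, and miR-376c, with 250 and 253. It was nearest to these and to miR-704, with 243 and 273. The rank of miR-199a rests on adding the 3p counts listed at both of its loci. That of miR-199b rests on the 3p sequence that it shares with miR-199a, and its own 5p sequence had 943 and 847 reads.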
